A study of Sus scrofa with 12 samples.

Results

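In the muscle of newborn piglets, 10 genes of the response to low oxygen were followed: the factors HIF1A and EPAS1, the oxygen-dependent hydroxylases EGLN1 and EGLN3, the secreted products VEGFA and ADM, and the metabolic targets PFKFB3, PFKFB4, PDK1 and NDUFA4L2. They were chosen by gene symbol, and the 10 symbols matched 11 of the 22861 identifiers in the table, because NDUFA4L2 is held by ENSSSCG00000000420 and by ENSSSCG00000027621. The gene annotation used here gives the name to ENSSSCG00000027621, while for ENSSSCG00000000420 the name comes from the study's list. The animals were male pigs at postnatal day 1, and the tissue was the Biceps femoris of the ham. The table held 5 crossbred piglets of Iberian dams and Duroc sires (IBxDU) and 6 pure Iberian piglets (IB). A sixth IBxDU animal named in the labels was not analysed here. All piglets were born to Iberian sows of 1 farm, so the genetic types differ in the sire breed, and the sources used here do not give the litter of each animal. Where piglets shared a litter, they are not independent, and the p-values below treat every animal as a separate replicate.

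In cells with enough oxygen, the prolyl hydroxylases encoded by the EGLN genes modify the alpha subunits HIF1A and EPAS1, which are then bound by the VHL protein and degraded. When oxygen is scarce the subunits persist, pair with ARNT and switch on genes for vessel growth, for glycolysis and for lower use of oxygen by mitochondria. Because this control acts on the protein, the messenger level of HIF1A or EPAS1 does not report the activity of the factor. EGLN3 and EGLN1 are themselves targets of the factors. In whole muscle, fewer cells of a type and less RNA per cell cannot be told apart.

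The unit is RPKM, in which the reads of a gene are divided by its exon length and by the mapped reads of the animal, so levels can be compared between genes. The reads behind them were recovered from the table, and the exon reads per animal numbered 17352445 to 30630157 in IBxDU and 16940746 to 29623056 in IB. A filter kept identifiers whose mean exceeded 0.5 RPKM in one or both genetic types, and all 11 passed it among 11875 in all. Genes of the muscle fibre were abundant in every animal, with the skeletal actin ACTA1 at 18600 to 42800 RPKM in IBxDU and 25900 to 30800 RPKM in IB. One crossbred animal, IBxDU-402, stood apart: the summed levels of the marker lists of endothelium, red cells, macrophages, adipocytes and fibroblasts were highest in it among the 11 animals. Its endothelium sum, 203 RPKM, was close to the 201 RPKM of IBxDU-429, and its muscle fibre sum, 56700 RPKM, ranked 2 from the top. Its red cell sum, 729 RPKM, was near the 653 RPKM of IBxDU-412 and was mostly HBB. The sums hold only the list symbols matched to an identifier, 3 of 6 for red cells and for adipocytes, and weigh most on the abundant genes. Its macrophage sum was 151 RPKM, with 11.9 to 41.4 RPKM in the other IBxDU animals and 20.1 to 54.8 RPKM in IB animals. Its fibroblast sum was 5690 RPKM, with 636 to 2160 RPKM in the other IBxDU animals and 974 to 2630 RPKM in IB animals. Values without this animal are given beside the genes whose unadjusted p crossed 0.05, or whose difference changed by over 1.5 times, when it was left out.

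Among these genes the widest difference on the log2 scale was seen under one of the identifiers of NDUFA4L2, and the other identifier did not share it. NDUFA4L2 encodes a relative of NDUFA4, a subunit of cytochrome c oxidase, and in mouse and human cells it is induced by HIF1A and lowers mitochondrial respiration. Under ENSSSCG00000000420 the level was 10.3, 4.07, 5.21, 3.73 and 2.53 RPKM in IBxDU animals, against a lowest value of 0.316, a median of 1.39 and a highest value of 3.22 RPKM in IB animals. In IBxDU, 4 of 5 animals lay above every IB animal, and the groups overlapped only through IB-504, which was higher than IBxDU-429. The means were 5.16 ± 3.02 RPKM in IBxDU and 1.52 ± 1.00 RPKM in IB (SD, n = 5 and 6). On the log2(RPKM + 0.1) scale the mean was higher in IBxDU by 1.80 (SE 0.47, 95% interval 0.79 to 2.81), with an adjusted p = 0.405 by limma over all genes. The unadjusted limma p = 0.00186 stands beside p = 0.00866 from the exact two-sided permutation test of this single gene, where the smallest p that the 462 relabelings allow is 0.00433. The difference therefore did not pass the threshold of 0.05 after Benjamini-Hochberg adjustment, and without IBxDU-402 it was 1.52. The study had named this identifier as differing in the same animals, so the present fit adds no independent evidence of its direction. The values rest on 49 to 183 reads per animal in IBxDU and 10 to 59 reads in IB, so the IB values in particular carry counting error.

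Under ENSSSCG00000027621 the order was turned. The level was 10.5, 9.01, 11, 12.7 and 10.8 RPKM in IBxDU animals, against a lowest value of 8.93, a median of 14.1 and a highest value of 15.3 RPKM in IB animals. The IB mean exceeded the value of all 5 IBxDU animals, and 1 IB animal, IB-503, was lower than every IBxDU animal. The means were 10.8 ± 1.32 RPKM in IBxDU and 13.3 ± 2.25 RPKM in IB, a log2 difference of -0.29 (SE 0.17, 95% interval -0.65 to 0.08, limma adjusted p = 0.648, exact permutation p = 0.0909). After median-of-ratios scaling the difference was -0.40, with an unadjusted p = 0.0396 and an adjusted p = 0.649 by limma.

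Added together, the 2 identifiers gave overlapping levels in the genetic types. Their reads, summed and divided by the summed exon length, gave 10.4, 6.83, 8.43, 8.74 and 7.16 RPKM in IBxDU animals, against a range of 5.12 to 9.95 RPKM in IB animals. The means were 8.31 ± 1.42 RPKM in IBxDU and 8.09 ± 1.62 RPKM in IB, with a log2 difference of 0.05 (SE 0.19, 95% interval -0.36 to 0.46, limma adjusted p = 0.946). ENSSSCG00000027621 held most of the summed reads in every animal, so the sum mainly follows that identifier. The division of the reads differed in these animals, although neither identifier alone passed the adjusted threshold. ENSSSCG00000000420 took 43.8%, 26.3%, 27.3%, 18.9% and 15.6% of the summed reads in IBxDU animals, against 2.73% to 14.3% in IB animals. The means were 26.4 ± 10.9% in IBxDU and 7.74 ± 4.07% in IB. The ranges did not meet, but 14.3% in IB-504 lay close to 15.6% in IBxDU-429. This share was computed after the values of both identifiers had been seen and was given no test. The sources used here do not say how reads that fit both identifiers were assigned, so the level of either identifier alone is uncertain.

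**Figure D1:**
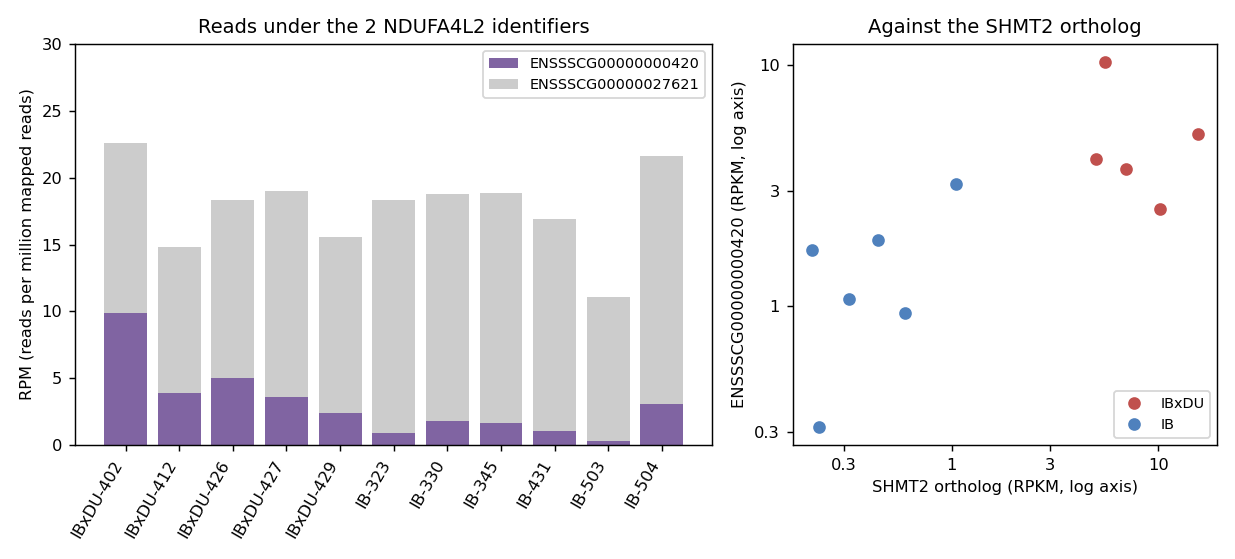
Left, reads as a rate of the mapped reads of each animal (RPM, linear axis) under the 2 NDUFA4L2 identifiers, stacked, in each of the 5 IBxDU and 6 IB animals; right, RPKM of ENSSSCG00000000420 against RPKM of the SHMT2 ortholog (both log axes), 1 point per animal. The ENSSSCG00000000420 part is 15.6% to 43.8% of a bar in IBxDU and 2.73% to 14.3% in IB, while the whole bars overlap.

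NDUFA4L2 lies beside SHMT2 on chromosome 5 in the RefSeq annotation of Sscrofa11.1, with a gap of 159 bases, and STAC3 follows it on the other side. SHMT2 encodes the mitochondrial serine hydroxymethyltransferase, which feeds the one-carbon cycle. The identifier that the study lists as the SHMT2 ortholog, ENSSSCG00000022116, had 4.99 to 15.6 RPKM in IBxDU animals, against 0.21 to 1.05 RPKM in IB animals. The groups did not overlap, and the log2 difference was 3.97 (SE 0.38, limma adjusted p = 0.000747, exact permutation p = 0.00433). Since the animals form separate clusters by this gene, no pooled correlation with NDUFA4L2 is given. Within the 6 IB animals, ENSSSCG00000000420 and the SHMT2 ortholog gave r = 0.61 (exact permutation p = 0.212) and rho = 0.43 (exact permutation p = 0.419). IB-504 was the highest IB animal for both. No correlation was computed within IBxDU, where 5 animals fall short of the minimum of 6 used here. In that group IBxDU-402, the highest animal for ENSSSCG00000000420, was next to the lowest for the SHMT2 ortholog, and IBxDU-429, the lowest, was next to the highest. The positions are those of the Sscrofa11.1 annotation, while the values were made on Sscrofa10.2.

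None of the 10 genes passed the threshold over all genes. Of the 11 identifiers, 0 were called at an adjusted p under 0.05 by limma, where 0.0168% of all tested genes were called, and 1 had an unadjusted p under 0.05, where 8.03% of all tested genes did. With upper quartile scaling, median-of-ratios scaling or voom on the recovered reads, 0 of 11 were called and 3 had an unadjusted p under 0.05, against 7.38% of all tested genes with the first scaling, 7.45% with the second and 7.51% with voom. The mean was higher in IBxDU for 8 of 11, against 66.9% of all tested genes, for 6 of 11 after upper quartile scaling, against 52.9%, and for 6 of 11 after median-of-ratios scaling, against 51.5%. This scaling moved the median log2 difference of all genes to 0.01, against 0.13 in the deposited values, so small positive differences below are to be read against that shift. None of the 11 separated the genetic types without overlap, as 1.04% of all tested genes did.

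**Figure D2:**
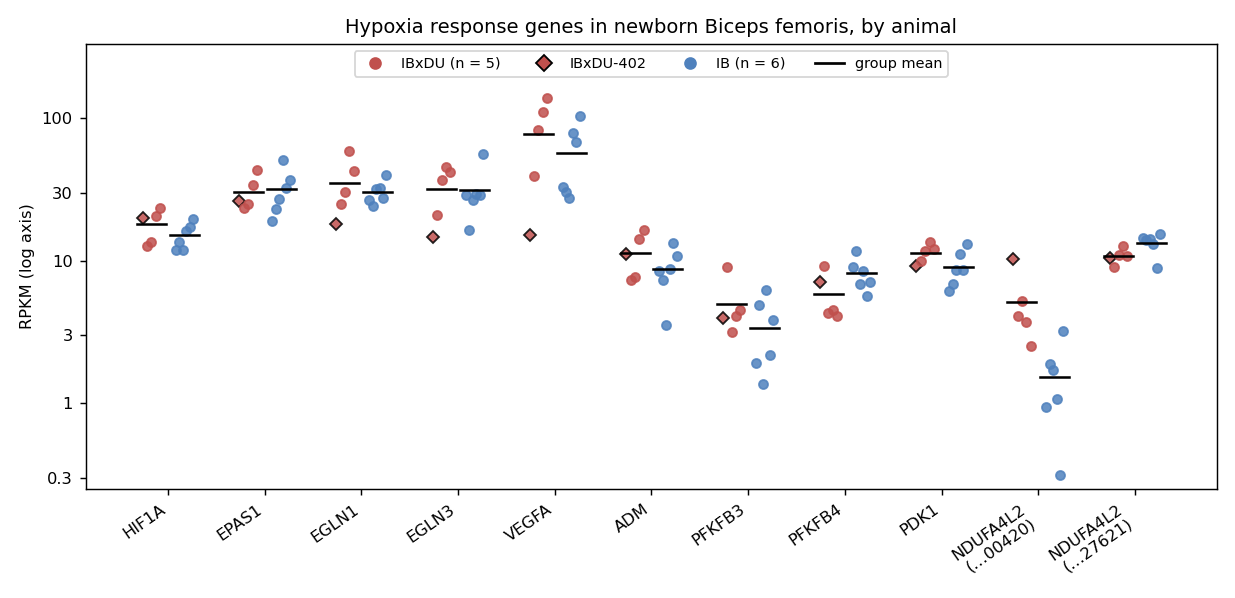
RPKM on a log axis for the 11 identifiers, with each IBxDU animal (red, IBxDU-402 as a diamond) left of the IB animals (blue) and bars at the group means. The groups overlap for every identifier, and ENSSSCG00000000420 of NDUFA4L2 has the widest gap between means on this axis, 5.16 RPKM in IBxDU and 1.52 RPKM in IB.

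The transcript levels of the factors themselves overlapped between the genetic types. HIF1A, the broadly expressed alpha subunit, had 20.0, 12.6, 13.6, 20.6 and 23.5 RPKM in IBxDU animals, against a lowest value of 11.8, a median of 14.7 and a highest value of 19.5 RPKM in IB animals. In IBxDU, 3 animals were above every IB animal and the other 2 lay among the lower IB animals. The log2 difference was 0.25 (SE 0.21, 95% interval -0.20 to 0.70, limma adjusted p = 0.739). EPAS1, the alpha subunit known best from endothelium, had 26.3, 23.4, 24.8, 33.8 and 43.1 RPKM in IBxDU animals, against a lowest value of 19.0, a median of 29.6 and a highest value of 51.1 RPKM in IB animals. The ranges lay one inside the other, and the log2 difference was -0.02 (SE 0.25, 95% interval -0.56 to 0.51, limma adjusted p = 0.985), or 0.02 without IBxDU-402. EPAS1 was higher than HIF1A in 11 of 11 animals. Of the 7 tested genes of HIF subunits and partners, 1 was higher and 6 were lower in IBxDU, where 66.9% of all tested genes were higher. None of the 7 had an unadjusted p under 0.05. ARNT, the shared partner subunit, averaged 9.45 ± 1.74 RPKM in IBxDU and 10.3 ± 2.07 RPKM in IB. HIF3A, the third alpha subunit, averaged 2.38 ± 0.873 RPKM in IBxDU and 5.16 ± 5.13 RPKM in IB, with IB animals spread over 1.12 to 14.0 RPKM. The coactivators EP300 and CREBBP had log2 differences of -0.17 (SE 0.21) and -0.33 (SE 0.25), the first -0.11 without IBxDU-402.

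Of the hydroxylases that read oxygen, EGLN1 was spread more widely in IBxDU (SD 16.0 RPKM) than in IB (SD 5.64 RPKM). EGLN3 was spread about equally, with an SD of 13.5 RPKM in IBxDU and 13.2 RPKM in IB. EGLN1, the main hydroxylase of HIF1A, had 18.1, 24.8, 30.4, 58.6 and 42.4 RPKM in IBxDU animals, against a lowest value of 24.3, a median of 29.4 and a highest value of 40.0 RPKM in IB animals. IBxDU animals were both the lowest and the highest of all, and the log2 difference was 0.10 (SE 0.26, 95% interval -0.46 to 0.66, limma adjusted p = 0.918). EGLN3, the hydroxylase most readily induced by hypoxia, had 14.7, 20.8, 36.9, 45.3 and 42.1 RPKM in IBxDU animals, against a lowest value of 16.3, a median of 28.8 and a highest value of 56.0 RPKM in IB animals. The lowest value was again IBxDU-402, and the highest was IB-504. The log2 difference was 0.02 (SE 0.33, 95% interval -0.69 to 0.72, limma adjusted p = 0.988), and both hydroxylases changed sign under the other scalings. Without IBxDU-402 the log2 difference was 0.30 for EGLN1 and 0.26 for EGLN3. HIF1AN, which hydroxylates an asparagine of the alpha subunits, averaged 11.8 ± 4.52 RPKM in IBxDU and 8.01 ± 2.88 RPKM in IB, and 4 of 5 IBxDU animals lay above every IB animal. Its log2 difference was 0.53 (SE 0.34, limma adjusted p = 0.667), and 0.83 without IBxDU-402 (limma unadjusted p = 0.0104, adjusted p = 0.394). Of the 7 tested genes of oxygen sensing and HIF degradation, 5 were higher and 2 lower in IBxDU, or 2 higher after median-of-ratios scaling. Of all tested genes 66.9% were higher, or 51.5% after that scaling. P4HTM, a membrane-bound prolyl hydroxylase, and CUL2, a scaffold of the VHL ligase, had log2 differences of -0.34 (SE 0.30) and 0.14 (SE 0.15), and of -0.53 and 0.22 without IBxDU-402.

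VEGFA, the growth factor that recruits vessels, was the most abundant of the 10 genes and the one that varied most between animals after ENSSSCG00000000420. It had 15.1, 39.0, 82.4, 110 and 138 RPKM in IBxDU animals, against a lowest value of 27.3, a median of 50.5 and a highest value of 103 RPKM in IB animals. Crossbred animals held the lowest value, in IBxDU-402, and the 2 highest. The means were 76.8 ± 50.1 RPKM in IBxDU and 56.7 ± 31.1 RPKM in IB, and the log2 difference was 0.26 (SE 0.53, 95% interval -0.88 to 1.39, limma adjusted p = 0.895). Single animals decided this value: it was 0.75 without IBxDU-402 and -0.05 without IBxDU-429. ADM, the vasodilator peptide adrenomedullin, had 11.2, 7.33, 7.69, 14.1 and 16.3 RPKM in IBxDU animals, against a lowest value of 3.52, a median of 8.58 and a highest value of 13.3 RPKM in IB animals. The 2 highest values were in IBxDU and the lowest was in IB, with a log2 difference of 0.41 (SE 0.32, 95% interval -0.26 to 1.09, limma adjusted p = 0.714). Without IB-345, the lowest animal, it was 0.18.

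Among the receptors of these ligands, RAMP1 was the gene with the smallest p. RAMP1 pairs with the calcitonin receptor-like receptor CALCRL to form the receptor of the peptide CGRP, whereas RAMP2 pairs with it to form a receptor of adrenomedullin. It averaged 156 ± 54.6 RPKM in IBxDU and 242 ± 56.3 RPKM in IB, and 3 of 5 IBxDU animals lay below every IB animal. The log2 difference was -0.67 (SE 0.23, limma unadjusted p = 0.0111, adjusted p = 0.539). RAMP2 had means of 62.2 RPKM in IBxDU (range 43.6 to 90.1) and 69.5 RPKM in IB (range 50.3 to 98.5), which overlapped (log2 difference -0.17, SE 0.21, limma adjusted p = 0.823). CALCRL averaged 7.02 ± 3.26 RPKM in IBxDU and 4.89 ± 1.89 RPKM in IB (log2 difference 0.48, SE 0.32). NRP1, a co-receptor for VEGFA, averaged 12.8 ± 3.38 RPKM in IBxDU and 9.76 ± 1.98 RPKM in IB (log2 difference 0.38, SE 0.20). Of the 10 tested ligands and receptors 7 were higher in IBxDU (70.0%, against 66.9% of all tested genes). The endothelium list summed to 137 to 203 RPKM in IBxDU and 139 to 193 RPKM in IB.

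The bifunctional enzymes PFKFB3 and PFKFB4 set the level of fructose 2,6-bisphosphate, the activator of phosphofructokinase in glycolysis, and their means differed in opposite directions. PFKFB3, the isoform with high kinase activity, had 3.98, 8.95, 3.17, 4.11 and 4.52 RPKM in IBxDU animals, against a lowest value of 1.37, a median of 3.0 and a highest value of 6.17 RPKM in IB animals. IBxDU-412 was the only animal above the IB range, and the log2 difference was 0.62 (SE 0.38, 95% interval -0.19 to 1.43, limma adjusted p = 0.649). PFKFB4 had 7.03, 9.11, 4.28, 4.48 and 4.07 RPKM in IBxDU animals, against a lowest value of 5.68, a median of 7.81 and a highest value of 11.7 RPKM in IB animals. In IBxDU, 3 animals were below every IB animal, and the log2 difference was -0.52 (SE 0.25, 95% interval -1.06 to 0.01, limma adjusted p = 0.612, exact permutation p = 0.0823). Without IBxDU-402 it was -0.61 (limma unadjusted p = 0.037, adjusted p = 0.447), and without IBxDU-412 it was -0.70 (limma unadjusted p = 0.0105, adjusted p = 0.277). After median-of-ratios scaling it was -0.64, with an unadjusted p = 0.0156 and an adjusted p = 0.584 by limma. PFKFB2, the isoform known from heart, averaged 3.28 ± 2.14 RPKM in IBxDU and 3.06 ± 0.839 RPKM in IB, with a log2 difference of -0.08, or 0.02 without IBxDU-402. PFKFB1, known from liver and muscle, averaged 0.51 ± 0.185 RPKM in IBxDU and 0.736 ± 0.204 RPKM in IB.

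PDK1 encodes a kinase that inactivates pyruvate dehydrogenase and so lowers the use of pyruvate in mitochondria. It had 9.23, 9.93, 11.7, 13.5 and 12.0 RPKM in IBxDU animals, against a lowest value of 6.07, a median of 8.64 and a highest value of 13.0 RPKM in IB animals. Each of the 5 IBxDU values exceeded the IB mean of 9.04 RPKM, but the upper IB animals lay among them. The log2 difference was 0.35 (SE 0.21, 95% interval -0.10 to 0.80, limma adjusted p = 0.648). PDK4 and PDK2 were more abundant than PDK1 and PDK3 less so. PDK4, which is induced by fasting, averaged 348 ± 268 RPKM in IBxDU and 411 ± 165 RPKM in IB, and PDK2 averaged 74.6 ± 14.8 RPKM in IBxDU and 94.1 ± 20.1 RPKM in IB. The log2 difference of PDK2 was -0.33, and -0.20 without IBxDU-402. PDK3 averaged 1.74 ± 0.743 RPKM in IBxDU and 1.42 ± 0.392 RPKM in IB. PDP1, the phosphatase that reverses the kinases, had a log2 difference of 0.37 (SE 0.22). NDUFA4 averaged 1740 ± 194 RPKM in IBxDU and 1990 ± 305 RPKM in IB, and COX4I1, another cytochrome c oxidase subunit, had a log2 difference of -0.14 (SE 0.14).

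**Figure D3:**
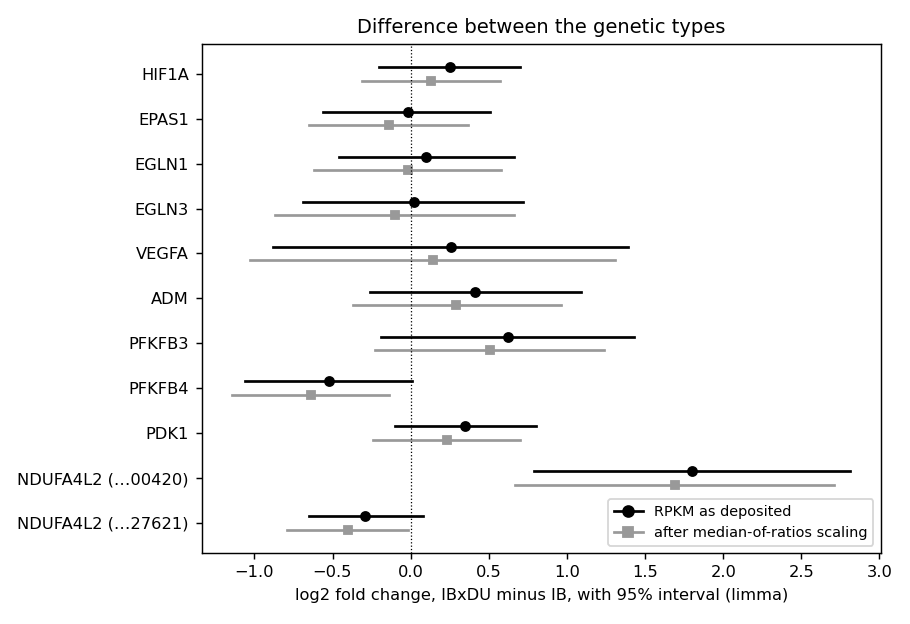
Log2 fold change (IBxDU minus IB) of the 11 identifiers with 95% intervals from limma, for RPKM as deposited (black circles) and after median-of-ratios scaling (grey squares). In the deposited values only the interval of ENSSSCG00000000420, 0.79 to 2.81, lies clear of 0, and after scaling those of PFKFB4 and of ENSSSCG00000027621 do too.

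No gene of the wider pathway passed the adjusted threshold. The 7 pathway lists, with 111 symbols, held 78 tested genes. Of these, 44 were higher and 34 lower in IBxDU, where 66.9% of all tested genes were higher. At an unadjusted p under 0.05 by limma there were 4 (5.13%, against 8.03% of all tested genes), and 0 passed the adjusted threshold. The median log2 difference was 0.09 over these genes and 0.13 over all tested genes. Among 51 tested HIF target genes 34 were higher in IBxDU (66.7%, near the share of all tested genes), and the median was 0.13. After median-of-ratios scaling 26 were higher, where 51.5% of all tested genes were. PLOD1, a lysyl hydroxylase of collagen, averaged 32.0 ± 7.25 RPKM in IBxDU and 22.6 ± 5.65 RPKM in IB, with 4 of 5 IBxDU animals above every IB animal (log2 difference 0.50, limma unadjusted p = 0.0459, adjusted p = 0.611). Without IBxDU-402 its difference was 0.45 (limma unadjusted p = 0.0911, adjusted p = 0.511), and without IB-345 it was 0.35 (limma unadjusted p = 0.105, adjusted p = 0.745). TF, the iron carrier transferrin, averaged 0.755 ± 0.245 RPKM in IBxDU and 1.31 ± 0.375 RPKM in IB (log2 difference -0.72, limma unadjusted p = 0.0253, adjusted p = 0.572). Without IBxDU-426 its difference was -0.56 (limma unadjusted p = 0.0708). These 2 genes, NDUFA4L2 under ENSSSCG00000000420 and RAMP1 make up the 4.

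**Figure D4:**
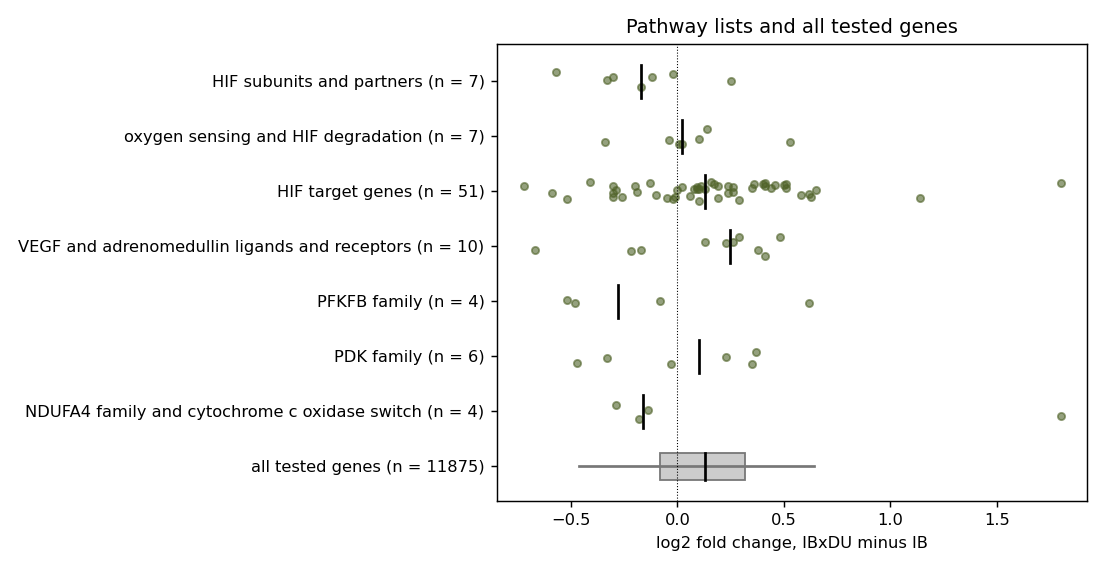
Log2 fold change (IBxDU minus IB) of each tested gene in the 7 pathway lists (points, with the list median as a bar) above all 11875 tested genes (box from the lower to the upper quartile, line from the 5th to the 95th percentile). The point at 1.80 is NDUFA4L2 under ENSSSCG00000000420, which stands in 2 lists, and the median of all genes is 0.13.

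Across the 11 animals the 11 identifiers ordered as VEGFA at 65.8 ± 40.0 RPKM, EGLN1 at 32.4 ± 11.1 RPKM, EGLN3 at 31.4 ± 12.7 RPKM, EPAS1 at 30.9 ± 9.68 RPKM and HIF1A at 16.4 ± 4.07 RPKM (SD, n = 11). Then came ENSSSCG00000027621 of NDUFA4L2 at 12.2 ± 2.22 RPKM, PDK1 at 10.1 ± 2.43 RPKM, ADM at 9.88 ± 3.66 RPKM, PFKFB4 at 7.08 ± 2.38 RPKM, PFKFB3 at 4.09 ± 2.13 RPKM and ENSSSCG00000000420 at 3.18 ± 2.79 RPKM. The step from EPAS1 down to HIF1A held in 11 of 11 animals and that from PFKFB4 to PFKFB3 in 10. EGLN1, EGLN3 and EPAS1 could not be ordered, since EGLN1 exceeded EGLN3 in 7 animals and EGLN3 exceeded EPAS1 in 4. PDK1 exceeded ADM in 5 animals. The highest animal exceeded the lowest 32.5-fold for ENSSSCG00000000420 and 9.08-fold for VEGFA, but 1.71-fold for ENSSSCG00000027621.

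Several of the genes moved together from animal to animal. Of 55 pairs, 4 passed the adjusted threshold by Pearson's r and 5 by Spearman's rho in permutation tests with 100000 resamples. VEGFA and EGLN3 gave r = 0.87 (permutation p = 0.00033, adjusted 0.0114) and rho = 0.92 (permutation p = 0.00019, adjusted 0.0104). HIF1A and ADM gave r = 0.84 (permutation p = 0.00053, adjusted 0.0114) and rho = 0.88 (permutation p = 0.00083, adjusted 0.0152). EGLN1 and EGLN3 gave r = 0.86 (permutation p = 0.00062, adjusted 0.0114) and rho = 0.90 (permutation p = 0.00047, adjusted 0.0129). VEGFA and EGLN1 gave r = 0.83 (permutation p = 0.00128, adjusted 0.0176) and rho = 0.83 (permutation p = 0.00299, adjusted 0.0329). Without the 2 animals farthest from the median of the first gene, these 4 values of r were 0.86, 0.86, 0.86 and 0.83. With the mean of each genetic type removed they were 0.88, 0.82, 0.87 and 0.83. VEGFA and PDK1 passed by rho alone (rho = 0.83, permutation p = 0.00279, adjusted 0.0329), with r = 0.72 (permutation p = 0.014, adjusted 0.139).

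All 21 pairs among HIF1A, EPAS1, VEGFA, ADM, EGLN1, EGLN3 and PDK1 had a positive r, between 0.34 and 0.87. This set of 7 was picked after the values were seen and is a description. PFKFB4 ran the other way, with r = -0.62 with VEGFA, -0.62 with EGLN3 and -0.66 with PDK1, none past the adjusted threshold. The NDUFA4L2 identifiers entered 19 pairs, with r between -0.33 and 0.42, and 0 of these passed. Between the 2 identifiers r was -0.06 over all animals, where the genetic types differ in opposite directions, and 0.62 with the mean of each genetic type removed. Within the 6 IB animals r was 0.89 (exact permutation p = 0.0167, adjusted 0.0167 over 3 relations) and rho was 0.60 (exact permutation p = 0.242). Without the 2 animals farthest from the median of ENSSSCG00000000420 this r was 0.26, so it rests on those animals. Mapped reads moved with both identifiers in IB animals, with r = -0.96 for ENSSSCG00000000420 (exact permutation p = 0.00556, adjusted 0.0104) and r = -0.92 for ENSSSCG00000027621 (exact permutation p = 0.00694, adjusted 0.0104). Without the 2 animals farthest from the median of mapped reads these were -0.75 and -0.83, and by rho they were -0.89 (exact permutation p = 0.0333, adjusted 0.0874) and -0.83 (exact permutation p = 0.0583, adjusted 0.0874). These 3 relations were chosen after the values were seen, and the part of depth in the levels was not tested. RPKM is itself divided by the mapped reads, which all 3 relations share, so they cannot separate depth from level. In IB animals the reads of ENSSSCG00000027621 ran only from 354 to 422, while mapped reads ran from 19096202 to 32879225. Over all 11 animals r with mapped reads was -0.50 and -0.34 (permutation, adjusted p = 0.287 and 0.607).

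**Figure D5:**
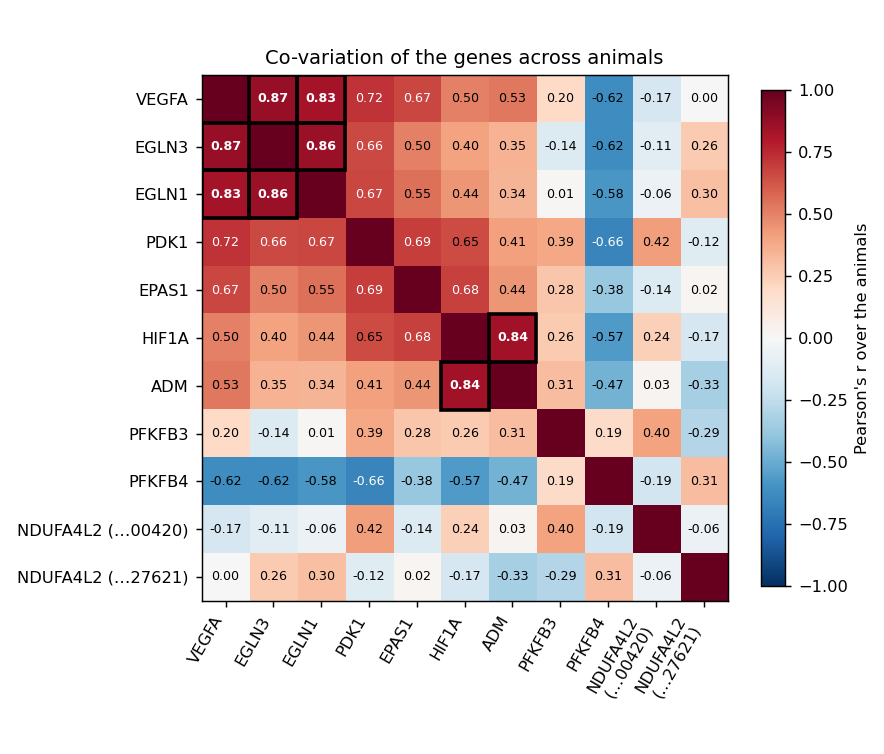
Pearson's r over 11 animals, on log2(RPKM + 0.1), for each pair of the 11 identifiers, from -1 (blue) to 1 (red), with the 4 pairs past an adjusted p of 0.05 in black frames. A block of positive values runs from VEGFA to ADM (0.34 to 0.87), PFKFB4 is negative with it, and the NDUFA4L2 identifiers lie between -0.33 and 0.42 in their 19 pairs. The value of -0.06 between them pools genetic types that differ in opposite directions, and it is 0.62 with the mean of each type removed.

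The animals that were high for VEGFA, EGLN3 and EGLN1 stood toward one end of the main axis of the whole transcriptome. The first principal component of all tested genes held 29.7% of the variance, with IBxDU-402 at its low end (-0.485) and IBxDU-429 at its high end (0.386). VEGFA followed it with r = 0.94 (permutation p = 0.0001, adjusted 0.0022) and rho = 0.88 (permutation p = 0.00063, adjusted 0.0139). EGLN3 gave r = 0.84 (permutation p = 0.00114, adjusted 0.0125) and rho = 0.84 (permutation p = 0.0023, adjusted 0.0169). EGLN1 gave r = 0.80 (permutation p = 0.00212, adjusted 0.0155) and rho = 0.84 (permutation p = 0.00215, adjusted 0.0169). PFKFB4 gave r = -0.78 (permutation p = 0.00602, adjusted 0.0331) and rho = -0.78 (permutation p = 0.00645, adjusted 0.0355). Without the 2 animals farthest from the median of the component, r was 0.90 for VEGFA, 0.69 for EGLN3, 0.66 for EGLN1 and -0.84 for PFKFB4. These were among 22 relations tested, with mapped reads as the other measure, for which none passed. The median absolute r of all tested genes with the component was 0.45, and 6.47% of them had an absolute r of 0.8 or more with VEGFA. HIF1A and ADM, the pair that did not include VEGFA, EGLN1 or EGLN3, followed the component with r = 0.53 and r = 0.50 (permutation, adjusted p = 0.287 for each), near that median. They rose to 0.86 and 0.70 without the 2 animals farthest from the median of the component, so the lower values rest on those animals. IBxDU-402, at the low end of this axis, was also the animal with the highest sums of red cell, macrophage, adipocyte and fibroblast markers. Its endothelial sum was the highest too, at 203 RPKM, but IBxDU-429, at the high end, had 201 RPKM. The part of these markers in the axis was not tested.

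By likeness across the 11 animals, the named genes closest to ENSSSCG00000000420 were GRK2 (r = 0.89), SYPL2 (0.86), TSPAN9 (0.85), NUP37 (0.84) and TAP2 (0.83), and the most opposed were NUDT14 (-0.82), CYSRT1 (-0.81) and ZNF32 (-0.77). For ENSSSCG00000027621 the closest were EPCIP (0.77), IDH2 (0.74), SERAC1 (0.73), PROB1 (0.72) and DVL2 (0.72), and the most opposed were DLGAP4 (-0.86), GPAT3 (-0.81) and RPS6KA3 (-0.74). After median-of-ratios scaling 2 of the 5 closest genes were kept for the first identifier and 3 of 5 for the second, and none of the opposed genes for either, so these names depend on the scaling. These values of r pool both genetic types and so also carry the difference between them.

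NDUFA4L2 is known in mouse and human tissue as a gene of pericytes, the cells around small vessels, and their markers were compared beside it. The 8 pericyte and mural markers measured summed to 56.1 to 85.1 RPKM in IBxDU and 42.8 to 87.0 RPKM in IB, and none was at 0. IB-431 had the highest sum, with 1.07 RPKM of ENSSSCG00000000420, and IBxDU-402 had the next, 85.1 RPKM, with 10.3 RPKM of ENSSSCG00000000420. In IBxDU 5 were higher and 3 lower (62.5% higher, against 66.9% of all tested genes). The log2 difference was largest for PDGFRB, a receptor of pericytes, at 0.54 (limma adjusted p = 0.582). The 3 lower markers were ABCC9 at -0.30, HIGD1B at -0.14 and NOTCH3 at -0.13. Whether the number of such cells bears on NDUFA4L2 was not tested.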

How the data were processed

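RNA of the Biceps femoris was sequenced in pairs of reads on a HiSeq2000. With CLC Bio Genomic Workbench the authors mapped the reads to Sscrofa10.2, and they deposited an RPKM value for each gene in each animal. The authors' p-values and fold changes, in 2 columns, were not used. A test on counts was not the main one because the deposited unit is RPKM. Whole reads were recovered from the values for 16953 of 16953 genes above 0 (100%, within 0.0001 of a read), taking the smallest exon length that made all values whole, so a common factor could understate reads of genes with few reads.

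Values were taken as log2(RPKM + 0.1), which understates the change of low genes. Genes entered where the mean of a genetic type exceeded 0.5 RPKM (11875 in all). They were fitted with limma 3.58.1 under R 4.3.3, with a trended prior and genetic type as the only effect, and adjusted by the Benjamini-Hochberg method over all genes at 0.05. Exact permutation tests between the genetic types used all 462 relabelings. Exact permutation tests of correlations within IB used all 720 pairings. Correlations over all 11 animals used 100000 permutations in Python 3.11.15 with scipy 1.17.1. The script was tested on simulated data. Gene names came from a gene table for 11450 identifiers and from the study's list for 2, among them ENSSSCG00000000420. Neighbouring genes were read from RefSeq (Sscrofa11.1).

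The genes, lists and tests were chosen with earlier results of these data known. The named genes are the 10 members, the genes of each list at an unadjusted p under 0.05 or, where fewer than 4 were, the 4 with the smallest p, the paralogs, and the 5 closest and 3 most opposed genes to NDUFA4L2. The paralogs EGLN2 and ARNT2 were not matched to an identifier and were not analysed here, HIF1AN was named as a list gene, and RAMP2 was named after its values were seen. Marker lists cover muscle fibre, pericyte and mural cells, smooth muscle, endothelium, red cells, macrophages, adipocytes and fibroblasts. Their sums were 27600 to 61600 RPKM in IBxDU and 38900 to 47200 RPKM in IB for muscle fibre, 252 to 486 RPKM in IBxDU and 215 to 555 RPKM in IB for smooth muscle, 369 to 729 RPKM in IBxDU and 287 to 559 RPKM in IB for red cells, and 9.09 to 118 RPKM in IBxDU and 7.70 to 72.6 RPKM in IB for adipocytes. PDGFRA, a fibroblast marker, was at 0 in all animals. Promoter and protein sequences were not used here. Alternatives were a pseudocount of 1, other filters, upper quartile and median-of-ratios scaling, no trend, animal weights and leaving out each animal. Voom on the recovered reads and the sum of both NDUFA4L2 identifiers were added after seeing the data.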

Additional observations from a re-analysis of the deposited data

Results flagged for a closer look

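In the 6 IB animals, NDUFA4L2 under ENSSSCG00000027621 had 1 value far from the others. It was 8.93 RPKM in IB-503, and the gap to the nearest IB animal on the log2(RPKM + 0.1) scale was 0.711 of the whole range on that scale, above the critical value of 0.625. The same animal was also the lowest IB animal for ENSSSCG00000000420, at 0.316 RPKM. This was the only one of 22 groups of animals examined, and chance flags about 1 in 20 groups.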

How the results depend on the processing

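No paired analysis was possible because the 2 genetic types were born to different sows and the design holds no pairs. In every alternative run, 0 of the 11 identifiers and 0 of the pathway genes passed the adjusted threshold. Over all genes 2 passed, and 1 with upper quartile scaling, median-of-ratios scaling, limma without a trend or voom, while leaving out single animals gave 1 to 2. For ENSSSCG00000000420 of NDUFA4L2 the log2 difference was 1.46 to 2.06 when single animals were left out, and its adjusted p was 0.248 to 0.934 over all settings that kept the identifiers apart. It was 0.05 when both were summed. Directions changed for genes near 0. EGLN1 was -0.01 with upper quartile scaling, -0.02 with median-of-ratios scaling and -0.02 with voom, and -0.12 to 0.30 without single animals. EGLN3 was -0.09, -0.10 and -0.11 under the same 3 settings, and -0.15 to 0.26 without single animals. EPAS1 was 0.02 with animal weights and -0.16 to 0.13 without single animals. PFKFB2 was 0.09 with animal weights and -0.39 to 0.23 without single animals, and VEGFA was -0.05 to 0.75 without single animals. The causes were not tested. Of the 55 pairs, 4 passed in the deposited values, 4 with median-of-ratios scaling or a pseudocount of 1, and 4 to 6 without single animals. Of the 5 genes closest to NDUFA4L2, 2 were kept with median-of-ratios scaling. Without single animals, 1 to 3 of the 11 identifiers had an unadjusted p under 0.05, and 3 to 10 of the 78 pathway genes (3.85% to 12.8%), while 4.51% to 11.9% of all tested genes did. Both shares were highest without IBxDU-412, and that of all genes was lowest without IBxDU-429. The pathway share was lowest without IBxDU-429 and equally low without IB-345, where 7.03% of all tested genes had an unadjusted p under 0.05. In the deposited values 4 pathway genes did and with upper quartile scaling 7 (8.97%, against 7.38% of all tested genes). ENSSSCG00000000420 rests on as few as 10 reads in an animal, so its level in IB is the least precise value given.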
